A study of Mus musculus with 2 samples.

Results

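Splicing factor and hnRNP genes were described on 2 Affymetrix arrays of mouse bone marrow cells transduced with Satb1 or with GFP. The members are the genes whose current symbol starts with Srsf, Hnrnp, Snrp, Sf3a or Sf3b, together with U2af1 and U2af2, measured by probe sets that are annotated to that gene alone. This rule, which uses no measured value, gave 136 of 45037 probe sets and 48 of 18193 genes. Of these genes, 10 encode SR proteins, 18 hnRNP proteins, 9 snRNP proteins, 9 SF3A or SF3B subunits and 2 the U2AF subunits. Both samples came from wild-type C57BL6J mice, and the cells are described as LSK Flt3-, a marrow fraction rich in stem cells that lacks lineage markers and Flt3 and carries Sca-1 and high c-Kit. The groups were the cells given Satb1 and the cells given GFP, the control transduction, and their arrays are named here by these labels. The vector, the time after transduction, and the age and number of the animals were not stated in the sources used here. The values are MAS5 intensities, Affymetrix's summary of the brightness of each probe set on a linear scale. With n = 1 array per group, no difference below has a replicate check, and no test, p-value or standard error could be given.

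Most mouse transcripts are spliced before they leave the nucleus. The spliceosome is built from small nuclear ribonucleoproteins (snRNPs), in which a ring of Sm proteins holds a short RNA. U2AF marks the end of the intron, and the SF3A and SF3B complexes of the U2 snRNP then hold the branch point. SR proteins have a tail rich in arginine and serine and mostly favour the use of an exon. hnRNP proteins coat the nascent transcript and often oppose that use. In people, SRSF2, SF3B1 and U2AF1 are recurrently mutated in myelodysplasia, a disease of blood progenitors.

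The arrays check the labels only in part. By its brightest probe set (1416008_at), Satb1 read 1116 on the GFP-labelled array and 909 on the Satb1-labelled array, so the transduced gene was not higher there. Its other probe sets above the floor on each array read 964 and 908, and 288 and 165. Whether this probe set lies within the transduced sequence was not stated in the sources used here, and all directions rest on the labels. Kit read 3293 and 3388, and Flt3 RNA was present at 1390 and 1334. Of the other stem cell markers measured, Cd34 read 8563 and 8197 and Procr 133 and 125. Slamf1 was higher on the Satb1-labelled array, at 95.7 and 233. Of the listed T and B cell markers, Cd3e, Cd4, Cd79a and Ms4a1 were below the floor on both arrays, and Cd8a read 88.9 and 147.5. The floor was an intensity of 61.7, the median of all values. The summed intensity of 9 granulocyte and monocyte markers was 25598 on the GFP-labelled array and 36614 on the Satb1-labelled array, and that of 5 basophil and mast cell markers was 13890 and 8245. Single markers ran against these sums, with Mpo at 18391 and 16452 and Prg2 at 194 and 825. The part of these cells in the differences below was not tested. In bulk RNA, fewer cells of a type and less RNA per cell cannot be told apart.

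The splicing factor genes read almost alike on both arrays. Paired readings below give the GFP-labelled array first, then the Satb1-labelled array, and log2 differences are Satb1 minus GFP. Each gene was represented by its brightest probe set, and 46 of the 48 passed the floor on both arrays. Of these 46, none was 2-fold or 1.5-fold apart, in either direction. Among the 11048 genes that passed the floor on either array, 0.272% were at least 2-fold higher and 0.860% at least 2-fold lower, and 1.75% were at least 1.5-fold higher and 3.91% at least 1.5-fold lower. With 46 members, the absence of 2-fold differences is near the shares of all genes. The largest member differences were those of Srsf2, 1.23-fold higher on the Satb1-labelled array, and of Sf3b3, 1.28-fold lower. These were the only members past 1.2-fold, a threshold added after the values were seen. Of all genes, 9.55% were at least 1.2-fold higher and 17.0% at least 1.2-fold lower. The other 44 members were closer, and 34 of the 46 were within 1.1-fold.

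Member genes were bright, and differences between the arrays were wider at low intensity, so the shares are also given among bright genes. Intensities of different probe sets are not amounts of transcript, since each binds with its own strength. Of the 46 members, 44 (95.7%) had a mean intensity of 2000 or more, against 24.9% of the 10316 genes above the floor on both arrays. Among the 2570 genes this bright, 1.01% were at least 1.5-fold apart, against 0 of 44 members. With only 44 members, a count of 0 is near that share, and no difference is read from it. At 1.2-fold, the share was 10.3% of the bright genes and 4.55% of the bright members, which is 2 genes. The log2 differences of the 44 had an SD of 0.12, against 0.19 for the 2570 genes and 0.29 for all genes above the floor. The 44 were brighter than the 2570, with a median intensity of 8302 against 3789, so these shares and SDs are not matched for brightness.

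**Figure D1:**
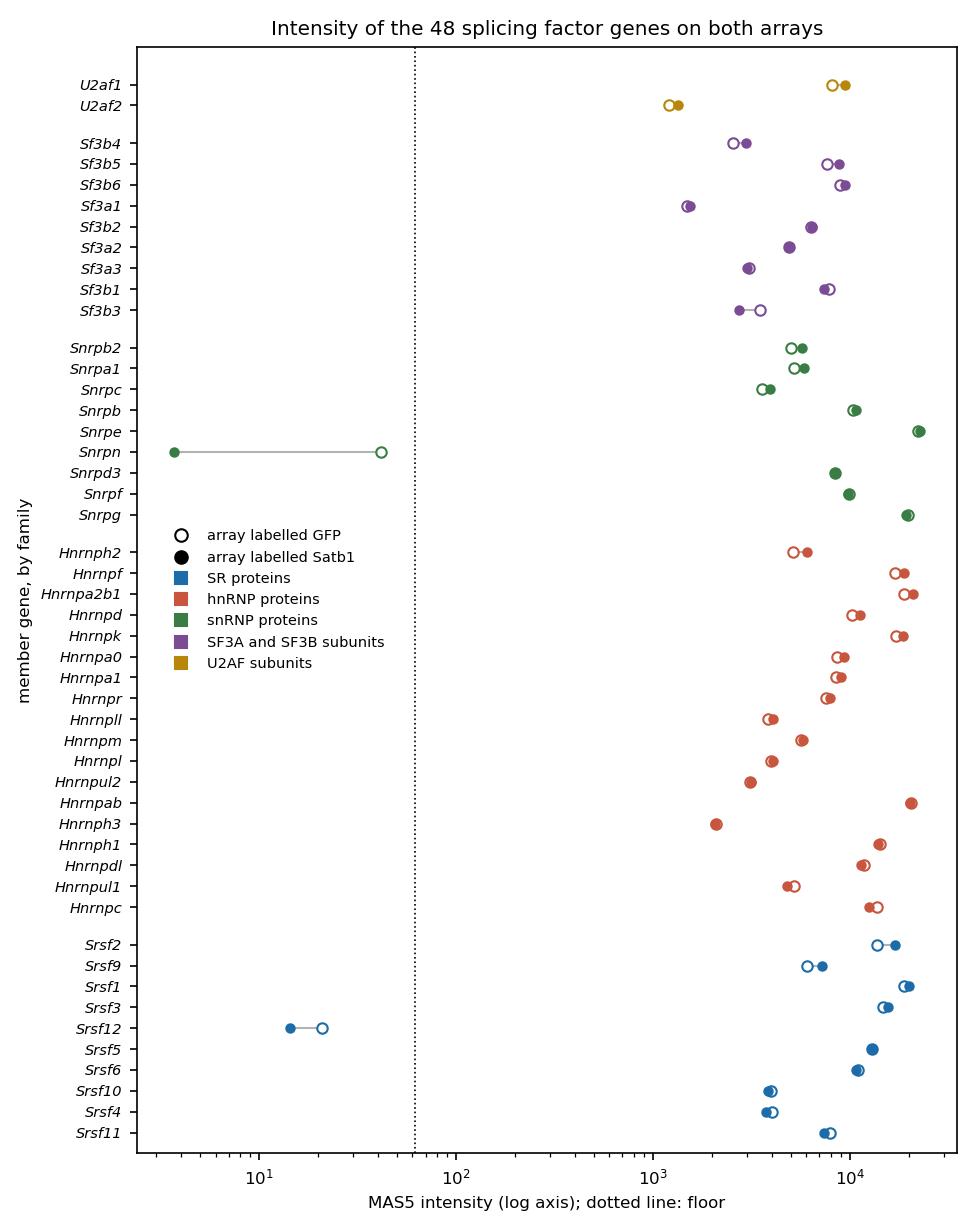
MAS5 intensity of the 48 member genes, each by its brightest probe set, on a log axis, with open circles for the GFP label and filled circles for the Satb1 label. The pairs of circles nearly coincide for 46 genes, and Snrpn and Srsf12 lie left of the dotted line at the floor of 61.7.

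The promoters of the genes at both ends of this narrow range are shown because Satb1 encodes a protein that binds AT-rich DNA, and the windows can be read for their base composition. Both are RefSeq windows on GRCm38.p6, from 250 bases before to 50 after the start of the gene, read 5′ to 3′ on the minus strand. The Srsf2 window is chr11:116853045-116853344 and the Sf3b3 window is chr8:110846754-110847053. Capitals mark every match, on either strand, to the CCAAT box, to the GC box GGGCGG, to the TATA box TATAAA or to the ETS-type core CCGGAAG, and neighbouring matches can overlap.
Srsf2: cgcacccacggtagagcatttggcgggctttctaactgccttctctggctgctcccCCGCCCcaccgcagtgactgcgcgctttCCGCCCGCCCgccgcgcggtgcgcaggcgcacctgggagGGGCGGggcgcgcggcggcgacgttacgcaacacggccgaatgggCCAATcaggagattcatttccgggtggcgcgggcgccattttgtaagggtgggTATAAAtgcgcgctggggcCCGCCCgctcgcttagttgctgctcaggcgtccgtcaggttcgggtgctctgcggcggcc
Sf3b3: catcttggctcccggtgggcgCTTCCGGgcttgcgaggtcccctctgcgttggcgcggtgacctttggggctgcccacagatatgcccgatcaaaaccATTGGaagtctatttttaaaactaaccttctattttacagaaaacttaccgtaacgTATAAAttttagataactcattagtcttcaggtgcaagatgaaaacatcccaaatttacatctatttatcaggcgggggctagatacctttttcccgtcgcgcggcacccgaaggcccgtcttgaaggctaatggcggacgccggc

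The Srsf2 window was 30.7% A and T, and the Sf3b3 window held as many A and T as G and C. The table held 59 windows for 42 of the 48 member genes, several genes having more than 1 start. The median A and T share was 39.0% over the member windows and 47.3% over all 32851 windows, and the member windows ranged from 20.3% to 59.7%. The GC box, which Sp1-type factors bind, was in 67.8% of the member windows and in 35.7% of all windows. The ETS-type core was in 33.9% and 8.86%. The CCAAT box was in 49.2% and 37.4%, and the TATA box in 10.2% and 13.6%. These are matches of letters, and no binding was measured.

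The SR proteins held the highest member. Srsf2, also known as SC35 and a component of nuclear speckles, read 13696 on the GFP-labelled array and 16891 on the Satb1-labelled array by its brightest probe set (1427504_s_at), a log2 difference of 0.30. Its other bright probe sets, 1452439_s_at and 1415807_s_at, read 8999 and 10260, and 4070 and 4242, with differences of 0.19 and 0.06. The remaining, dim probe set (1427816_at) went the other way, at 197 and 160, a difference of -0.30. The first 3 of these probe sets are of the kind marked _s_at, which can match transcripts of more than 1 gene, and without that kind Srsf2 is measured by the dim one alone. In all, 3 of the 4 probe sets were higher on the Satb1-labelled array, by amounts from 0.06 to 0.30.

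Srsf9, measured by 1 probe set, read 6073 and 7221, a difference of 0.25. Srsf1, also known as SF2 or ASF, had 6 probe sets above the floor. Each of the 6 was higher on the Satb1-labelled array, from 0.04 to 0.27, and the brightest read 18786 and 19963. Srsf3, the smallest SR protein, which also serves mRNA export, read 14683 and 15587, and its 6 probe sets lay between -0.00 and 0.15. For Srsf1 and Srsf3, the difference of the brightest probe set was smaller than the distance between their lowest and highest probe sets.

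Srsf5 read 13024 and 12961, a log2 difference of -0.01. Srsf6, which like Srsf4 and Srsf5 carries a long arginine and serine tail, read 10964 and 10752 by its brightest probe set, while its other 3 were higher by 0.09 to 0.26. Srsf10, a splicing repressor when it is dephosphorylated after heat shock, read 3972 and 3827 by its brightest probe set, a difference of -0.05. Its other probe sets were higher, by 0.01, 0.04 and 0.13. Srsf4 read 4014 and 3741, a difference of -0.10, and Srsf11 read 7939 and 7368, a difference of -0.11. The other Srsf11 probe sets gave -0.14, -0.06 and, for a dim one (1439095_at), 0.17. Srsf12 was below the floor on both arrays, at 20.8 and 14.3. Of the 9 SR genes above the floor, 4 were higher and 5 lower, with a median of -0.01. That median was 0.06 when the probe sets of each gene were averaged and 0.04 after each array was centred on its median, so the SR family has no settled direction. By probe set, 22 of 31 (71.0%) were higher and 9 lower. Of all probe sets with 1 symbol above the floor on both arrays, 47.9% were higher. Among those of 2000 or more, 2152 of 3531 were higher.

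The hnRNP proteins were the largest family, and all 18 genes were above the floor on both arrays. Of these, 12 were higher on the Satb1-labelled array and 6 lower, the median log2 difference was 0.05, and all but Hnrnph2 lay within 0.2 of 0. The A and B type proteins bind splicing silencers. Hnrnpa2b1 read 18887 and 20839 by its brightest probe set, and its 4 probe sets ran from -0.13 to 0.14. Hnrnpa1 read 8542 and 9028, a difference of 0.08, and Hnrnpa0, which binds AU-rich RNA, read 8600 and 9288, a difference of 0.11. Hnrnpab, with 7 probe sets, had the brightest probe set of the family, at 20444 and 20308, a difference of -0.01.

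The F and H proteins bind runs of guanine. Hnrnph2 read 5142 and 6060 by its only probe set, a log2 difference of 0.24, which was the highest of the family. Its close relative Hnrnph1 read 14187 and 13936, a difference of -0.03, and Hnrnph3 read 2078 and 2064. Hnrnpf had 4 probe sets, all higher on the Satb1-labelled array, from 0.01 to 0.20, and the brightest read 16945 and 18801. The 4 genes of this group therefore did not share a direction.

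Hnrnpc, which binds uridine tracts and can compete there with U2AF, read 13755 and 12558 by its brightest probe set, a log2 difference of -0.13. That was the lowest of the family, but a second Hnrnpc probe set (1418693_at) gave 1326 and 1579, or 0.25, and the mean over both was 0.06. Hnrnpd, also known as AUF1 and a regulator of mRNA decay, read 10281 and 11309, a difference of 0.14. Its relative Hnrnpdl read 11729 and 11322, a difference of -0.05. Hnrnpk, a protein that binds C-rich RNA and DNA, read 17149 and 18621, a difference of 0.12. Its 3 probe sets of 2000 or more were all higher, by 0.07 to 0.19. Its dimmer probe set (1454692_x_at) went the other way, at 615 and 540, a difference of -0.19.

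Hnrnpll regulates the splicing of Cd45 in lymphocytes and read 3849 and 4058, a log2 difference of 0.08, while its other probe set read 2587 and 2391, a difference of -0.11. Hnrnpl, which binds CA repeats, read 3987 and 4069. Hnrnpm read 5618 and 5750, and Hnrnpr read 7521 and 7945. The U-like proteins were close to 0 or slightly lower, with Hnrnpul2 at 3120 and 3143 and Hnrnpul1 at 5224 and 4821, a difference of -0.12. None of these genes was further from 0 than Hnrnpul1 by its brightest probe set.

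Among the snRNP proteins, 8 of 9 genes were above the floor, 5 were higher and 3 lower, and the median was 0.04. The 5 Sm ring genes with a probe set of their own above the floor were bright and close to 0 by their brightest probe sets. Snrpe read 22117 and 22631, which was the brightest probe set of any member. Snrpg read 19618 and 19183, and Snrpb read 10398 and 10725. Snrpf and Snrpd3 read about the same on both arrays, at 9949 and 9793, and at 8431 and 8363. All 5 log2 differences lay between -0.03 and 0.04, though dimmer probe sets of Snrpd3 gave -0.10 and -0.31. The second Snrpg probe set gave 0.05, against -0.03 for the brightest.

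The 3 Snrp member genes whose proteins belong to a particular snRNP had log2 differences from 0.12 to 0.19. The SF3A and SF3B subunits of the U2 snRNP, described below, ran from -0.36 to 0.21. Snrpa, a U1 snRNP protein gene whose probe set is shared with other genes, is outside the members and was at -0.00. Snrpb2 and Snrpa1 encode partner proteins of the U2 snRNP. Snrpb2 read 5046 and 5738, a log2 difference of 0.19, and all 3 of its probe sets were higher, from 0.19 to 0.34. Snrpa1 read 5213 and 5830, a difference of 0.16, though 1 of its 3 probe sets was lower, at -0.08. Snrpc, a U1 snRNP protein, read 3597 and 3922, a difference of 0.12. Snrpn, an imprinted Sm protein gene active in neurons, was below the floor on both arrays by its only probe set that is annotated to it alone, at 41.7 and 3.7. No difference is given for it, because values below the floor have no order.

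The SF3A and SF3B genes held the lowest member. Sf3b3, a scaffold subunit of SF3B, read 3491 on the GFP-labelled array and 2718 on the Satb1-labelled array, which is -0.36 on the log2 scale. By its second probe set (1430075_at) the readings were 768 and 612, or -0.33. Sf3b3 was lower by both of its probe sets, which lay 0.03 apart. Only quantile normalization, centring and the mean over probe sets could move its difference, which ran from -0.39 to -0.31 with them. Among probe sets of 2000 or more, those of 1 gene scattered around their mean with an SD of 0.13, and the differences of all genes this bright had an SD of 0.19. The SD within genes holds no error of sample preparation, which all probe sets of a gene share.

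The other subunits of SF3B were mixed in sign, and none was as far below 0 by its brightest probe set. Sf3b4 read 2556 and 2957, a difference of 0.21, against -0.32 for its dimmer probe set, at 442 and 356. Sf3b5 read 7681 and 8770, a difference of 0.19, against -0.01 for its second probe set. Sf3b6, which contacts the branch point, had 3 bright probe sets, all higher, with differences of 0.08, 0.09 and 0.41. Sf3b1, the branch point clamp that is recurrently mutated in human myelodysplasia, read 7864 and 7346 by its brightest probe set, a difference of -0.10. Its 4 probe sets ran from -0.10 to 0.36, and their mean was 0.10. Sf3b2 read 6329 and 6393 by its brightest probe set and 3570 and 3263 by the next (1433461_at), a difference of -0.13.

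The SF3A genes were within 0.07 of 0 by their brightest probe sets. Sf3a1 read 1481 and 1550, Sf3a2 4898 and 4929, and Sf3a3 3074 and 3006. The second Sf3a3 probe set went the other way, at 1162 and 1307, a difference of 0.17. Of the 9 genes of both complexes, 6 were higher and 3 lower, with a median of 0.01, which became -0.01 after quantile normalization and also without probe sets that can match several genes, 0.09 with the mean over probe sets and 0.07 after centring. The U2AF genes each had 1 probe set. U2af1, whose protein reads the AG at the end of the intron, read 8136 and 9434, a log2 difference of 0.21. U2af2, whose protein binds the pyrimidine tract, read 1210 and 1343, a difference of 0.15. Only quantile normalization and centring could move these values, to 0.16 and 0.26 for U2af1 and to 0.16 and 0.20 for U2af2. With 1 probe set each, the genes have no technical spread of their own.

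Across all 46 genes, 29 (63.0%) were higher on the Satb1-labelled array and 17 lower, and the median log2 difference was 0.04. Among all genes above the floor on both arrays, 45.7% were higher. Among genes with a mean intensity of 2000 or more, 58.8% were higher, against 27 of the 44 members this bright (61.4%). After quantile normalization, 24 members were higher and 22 lower, with a median of 0.01. After centring, 39 were higher and 7 lower, with a median of 0.09. The genes of 2000 or more moved as well, to 50.1% higher after quantile normalization and 73.2% after centring, against 22 and 37 of the 44 members this bright. The split moved with the scaling in members and other bright genes alike, and no direction is given for the members together.

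**Figure D2:**
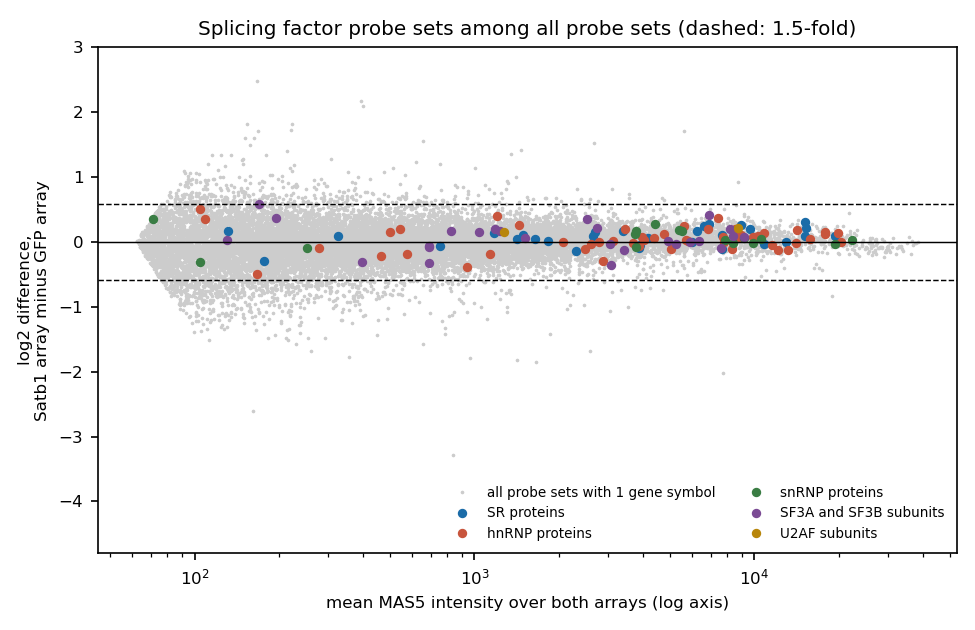
Log2 difference, Satb1-labelled array minus GFP-labelled array, against the mean MAS5 intensity over both arrays on a log axis. Grey points are all 18506 probe sets with 1 gene symbol above the floor on both arrays, and coloured points are the 125 member probe sets, all of which lie inside the dashed 1.5-fold lines.

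Probe sets of 1 gene often disagreed about sign but not about level across arrays. Of the 136 member probe sets, 125 were above the floor on both arrays, 1 on a single array and 10 on neither. Over the 125, the log2 intensities of both arrays were correlated with a Pearson r of 0.996 and a Spearman rho of 0.995, as a description over probe sets that share both arrays. None of the 126 was 1.5-fold apart, against 7.19% of the 20173 probe sets that passed the floor on either array. None was 2-fold apart, against 1.18%. These shares are not matched for brightness, and no difference is read from them. Of the 125, 88 had a mean intensity of 2000 or more, against 3531 of the 18506 with 1 gene symbol. Over those 18506, the SD of the log2 difference was 0.41 under 200 and 0.18 at 2000 or more. The widest was a dim Sf3b2 probe set (1459836_x_at), at 139 and 208, a log2 difference of 0.58, just inside 1.5-fold.

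Within a gene, intensity differed far more between probe sets than between arrays. Probe sets of a gene may also lie in different parts of it. Among the 32 member genes with 2 or more probe sets passing the floor on each array, the brightest was at the median 9.30 times as bright as the dimmest, and in 15 genes over 10 times. For all 4840 such genes the median was 3.96, and 24.5% were over 10 times. Members had more probe sets per gene, which leaves more room for a high ratio. Among genes with exactly 2, the median ratio was 3.48 in members and 2.56 in all genes. Among probe sets of 2000 or more, it was 1.98 and 1.60. In Hnrnpab the dimmest probe set read 96.6 and 123 and the brightest 20444 and 20308, a ratio of 187 between mean intensities. In Srsf2 the ratio was 85.8, in Snrpd3 80.5 and in Snrpb2 75.9.

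The sign of the difference changed between probe sets in 22 of the 32 genes (68.8%), against 52.1% of all genes with 2 or more. Members had more probe sets, at a mean of 3.47 against 2.69, which leaves more room for a change of sign. Among genes with exactly 2, the share was 7 of 12 members (58.3%) and 41.5% of all genes. In 7 genes (21.9%) every probe set was higher on the Satb1-labelled array and in 3 (9.38%) every one was lower, against 23.2% and 24.6% of all genes. The 7 were Srsf1, Hnrnpd, Hnrnpf, Snrpb, Snrpb2, Sf3a2 and Sf3b6, and the 3 were Hnrnph1, Snrpd3 and Sf3b3, named after their values were seen.

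**Figure D3:**
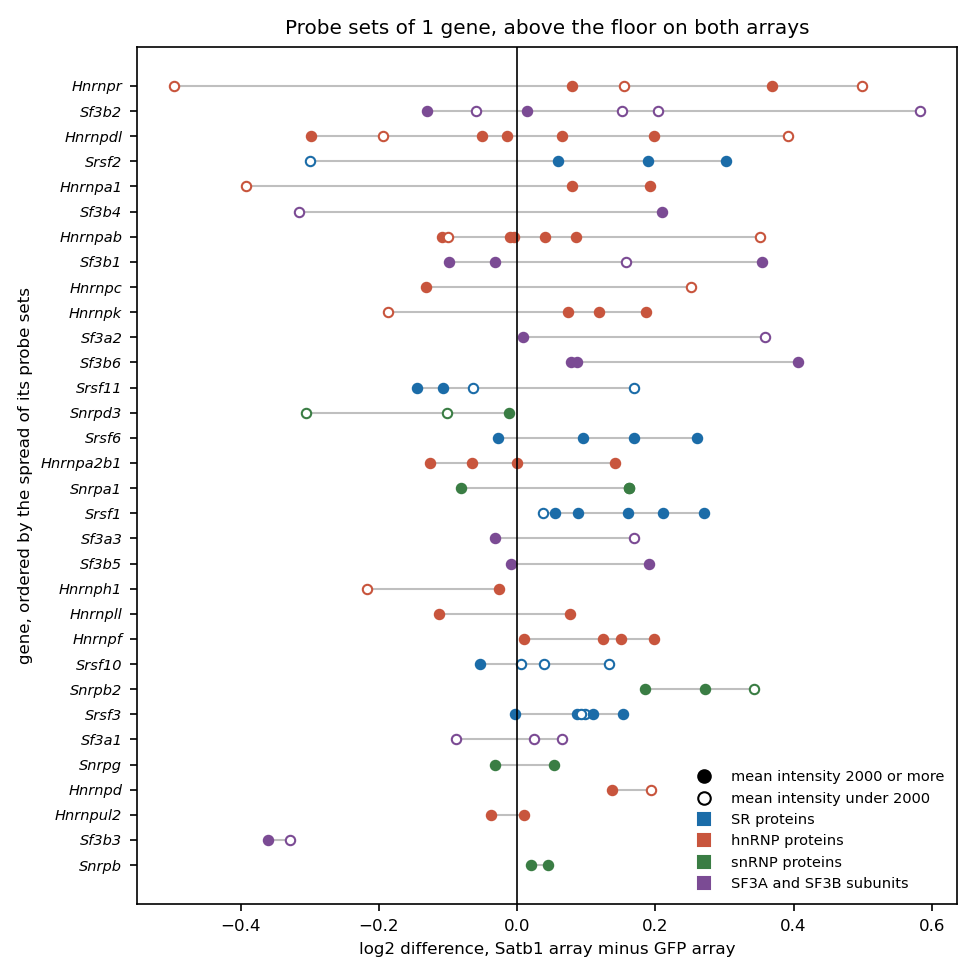
Log2 difference of each probe set above the floor on both arrays, for the 32 member genes with 2 or more, ordered by the distance between the lowest and the highest probe set. Filled circles have a mean intensity of 2000 or more and open circles a lower one, and in Hnrnpr, the widest gene, both outermost points are open.

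In 6 of the 32 genes (18.8%) the differences of the probe sets were at least 0.5 apart on the log2 scale, against 25.3% of all genes with 2 or more. The median distance was 0.26 in members and 0.29 in all genes, a comparison that is not matched for brightness. Among probe sets of 2000 or more, it was 0.19 in members and 0.13 in all genes. The SD of the difference within genes was 0.12 and 0.13 there. Members had more probe sets per gene there too, which leaves more room for a wide distance. Hnrnpr was the widest. Its bright probe sets read 7521 and 7945 (1427129_a_at) and 6503 and 8397 (1437526_x_at), differences of 0.08 and 0.37. Its dim ones went both ways, at 87.9 and 124 (1429232_at, a difference of 0.50) and at 198 and 140 (1438807_at, a difference of -0.50). In Hnrnpa1 the dimmer 1455740_at read 1074 and 819, a difference of -0.39, against 0.08 and 0.19 for the bright probe sets. Sf3b2 and Srsf2 had their outlying value in a probe set under 500. Sf3b4 had 2 probe sets, and the one under 500 gave the lower value.

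Among the 6, Hnrnpdl had the widest distance between probe sets over 2000. 1424252_at read 3192 and 2597, a log2 difference of -0.30. 1449039_a_at read 3219 and 3693, a difference of 0.20, and 1428224_at read 1055 and 1384, a difference of 0.39. Hnrnpdl encodes an AU-rich element binding protein whose own transcript is spliced in several ways, and which form each probe set measures was not stated in the sources used here. Sf3b1 showed a similar spread, with 1418562_at at 2236 and 2860, a difference of 0.36. When probe sets under 2000 were left out, 22 genes kept 2 or more and none was 0.5 apart, against 2.68% of all 671 such genes. With 22 genes, finding none is near that share. The signs were opposite in 12 of the 22 (54.5%), against 39.3% of the 671. Hnrnpdl and Sf3b1 were the widest at 0.50 (just under that limit) and 0.45. The Hnrnpr and Srsf2 probe sets were then 0.29 and 0.24 apart with 1 sign, and those of Sf3b2 were 0.14 apart with opposite signs.

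The disagreement narrowed with intensity in members as in all genes. Within genes, the SD of the log2 difference was 0.12 for 66 member probe sets of 2000 or more and 0.13 for all 1632 such probe sets. It was 0.20 for the 10 member probe sets from 500 to 2000 and 0.19 for all. Over the 125 member probe sets, the size of the difference had a Spearman correlation of -0.33 with mean intensity. By kind, 32 of 61 probe sets ending in _at alone were higher on the Satb1-labelled array, 23 of 28 ending in _a_at, 14 of 21 ending in _s_at and 11 of 15 ending in _x_at. For all probe sets with 1 symbol these shares were 46.6%, 53.9%, 50.3% and 45.2%.

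The rest of the splicing pathway was described by 7 lists of 154 genes, of which 139 were measured and 136 were above the floor on both arrays. None was 2-fold apart. Taf15, which encodes an RNA-binding protein, was the only gene at 1.5-fold, reading 894 and 580, 1.54-fold lower on the Satb1-labelled array, while its dim second probe set read 92.3 and 112. With the mean over probe sets and after centring, no gene of its list was 1.5-fold lower. Of all genes that passed the floor on either array, 1.75% were at least 1.5-fold higher and 3.91% at least 1.5-fold lower. Of the 136, 70 (51.5%) were higher and 66 lower, with a median log2 difference of 0.00, against -0.02 for all genes. Among all genes above the floor on both arrays 45.7% were higher, and among those of 2000 or more 58.8%.

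The median of the SR protein kinases and import factors was the furthest from 0. In this list 8 of 10 genes were lower and 2 higher (20.0%), where 45.7% of all genes above the floor on both arrays were higher. The list is small, and its median was -0.13, which ran from -0.16 to -0.08 over all alternatives. Clk1, a nuclear kinase that phosphorylates SR proteins, had the largest difference and read 5117 and 3544, 1.44-fold lower. Its relatives, named after their values were seen, were also lower. Clk4 read 1717 and 1302, Clk3 1188 and 969, and Clk2 2082 and 1904. The cytoplasmic SR protein kinases, also named afterwards, went both ways, with Srpk1 at 3563 and 3249 and Srpk2 higher, at 1344 and 1754. None of the 10 was 1.5-fold apart.

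In the other lists, medians lay between -0.05 and 0.04. The genes higher were 7 of 12 among branch point and 3′ splice site factors, 13 of 22 in the catalytic spliceosome and 4 of 7 in the exon junction complex and nonsense-mediated decay. They were 20 of 34 among other snRNP and LSm proteins, 19 of 40 among other splicing regulators and 5 of 11 in snRNP assembly. For all genes above the floor on both arrays the share was 45.7%. In the branch point list the largest difference was that of Smndc1, a spliceosome assembly factor, at 1818 and 2485, 1.37-fold higher. Another Smndc1 probe set read 1595 and 2134, and the remaining one read 671 and 681. Eftud2, the GTPase of the U5 snRNP, led the list of other snRNP and LSm proteins at 4223 and 5488. Its other probe sets above the floor went both ways, at 2142 and 2383 and at 4243 and 4054. Dhx38, a helicase of the catalytic spliceosome, read 209 and 151, while its second, dim probe set read 60.9 and 82.0. Smg1, the kinase of nonsense-mediated decay, read 2139 and 1615, and both of its other probe sets above the floor were lower as well. Smn1, the snRNP assembly factor lost in spinal muscular atrophy, read 421 and 340.

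**Figure D4:**
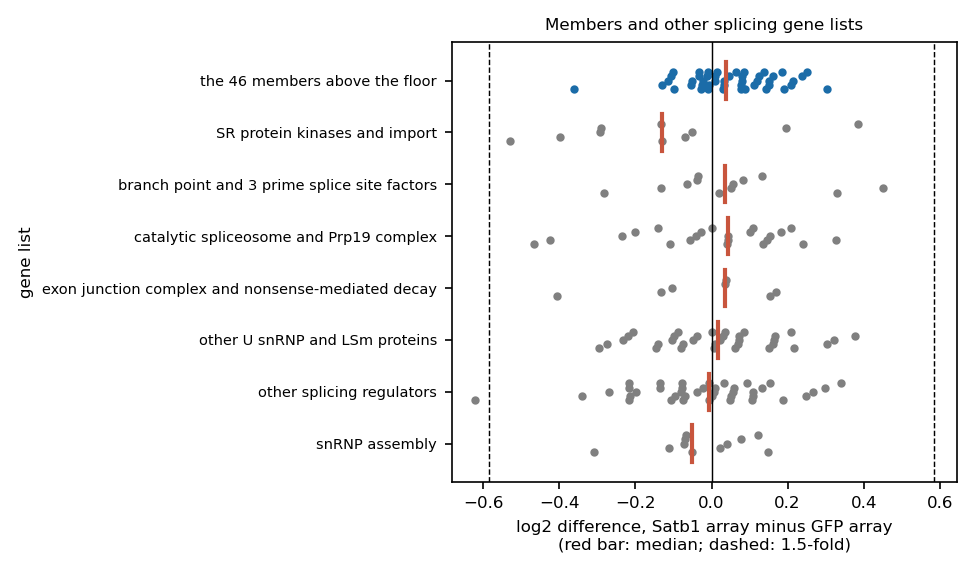
Log2 difference, Satb1-labelled array minus GFP-labelled array, of each gene above the floor on both arrays, for the 46 members and 7 other splicing lists. Red bars are medians and dashed lines 1.5-fold. The members span -0.36 to 0.30, and the kinase and import list has the lowest median, -0.13.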

How the data were processed

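RNA of 2 samples was hybridised to 1 Affymetrix array each. MAS5 was used by the authors, per the submitters' processing notes, and the deposited values are intensities on a linear scale, 1 per probe set. The version, scaling target and genome build were not stated in the sources used here. A mean without the lowest and highest 2% was 497 on both arrays. Arrays have no read depth, and their number limits the precision.

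Symbols came from the platform annotation, which gave 1 symbol to 34945 probe sets, several to 932 and none to 9160, and were updated by Entrez ID against RefSeq GRCm38.p6 (34741 matched). Each gene was represented by its brightest probe set. Intensities below 61.7 were set to that floor, and log2 differences are Satb1 minus GFP. Counts used 2-fold and 1.5-fold, with 1.2-fold and the comparison with genes of 2000 or more added after the values were seen. With 1 array per group no test was made. The script for the gene comparison was tested on simulated data. Python 3.11.15, numpy 2.4.6 and pandas 2.3.3 were used.

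The members and lists were chosen with earlier results of these data known. Named are all members, with probe set values for genes whose differences are 0.5 apart and for the 10 highest and 10 lowest, and the largest difference of each other list. Members outside these rules were named after their values were seen. Identity between paralogous proteins was to guide naming too and was not used here. One hnRNP gene is not reported here. The 7 alternatives were a floor at the 25th or 75th percentile or none, quantile normalization, centring, the mean over probe sets, and leaving out probe sets ending in _s_at or _x_at.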

Additional observations from a re-analysis of the deposited data

How the results depend on the processing

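No paired analysis was possible because each group had 1 array, and no array could be left out. The count of members at least 1.5-fold higher stayed at 0 under all 7 alternatives, and those at least 1.5-fold or 2-fold lower stayed at 0 under 5. With the floor at the 25th percentile or with no floor, 1 gene was lower by both thresholds. It was Snrpn, whose intensities of 41.7 and 3.7 lie below the floor used. Under those settings 3 genes were at least 1.2-fold lower, and without probe sets ending in _s_at or _x_at 2 were, while after centring 4 were at least 1.2-fold higher. Without those probe sets, 14 genes rather than 22 had probe sets of opposite sign, with fewer probe sets compared. The median of the exon junction and nonsense-mediated decay list was 0.04 and became -0.11 with the mean over probe sets, and the cause was not tested. The median over members ran from 0.01 (quantile normalization) to 0.09 (centring), and that of all genes above the floor moved from -0.02 to 0.00 and 0.03. Of 146 comparisons of the main counts and medians with an alternative, 136 moved by less than the limits used. The limits were 1.5 times for a count and 0.13 on the log2 scale for a median. Some of the 136 could not move, so this count is not a measure of stability. The same 46 members passed the floor at the 25th and the 75th percentile, which left the member and family medians unchanged there. For single genes, Srsf2 became -0.30 without _s_at and _x_at probe sets and 0.06 with the mean over probe sets. Sf3b5 became -0.01 and Hnrnpf 0.01 without _s_at and _x_at probe sets, and Sf3b4 became -0.05, Hnrnpc 0.06 and Sf3b1 0.10 with that mean. Among other splicing regulators, the count at least 1.5-fold lower was 1 and became 0 with that mean and after centring, and the count at least 1.5-fold higher was 0 and became 1 with the lower floor or none. Probe sets near the floor limit what can be seen in Snrpn and Srsf12.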

Other observations

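Another 16 probe sets carry the symbol of an SR, hnRNP, snRNP or SF3 gene together with that of a further gene or pseudogene, so their signal cannot be given to 1 gene. Hnrnpa3, an hnRNP A and B type protein, shared 4 of them with Gm6793. They read 14912 and 16518, 14326 and 14422, 3437 and 3370, and 2319 and 2321 on the GFP-labelled and Satb1-labelled arrays, log2 differences of 0.15, 0.01, -0.03 and 0.00. Hnrnpa1 shared 3 with pseudogenes, at 14706 and 14218, 12135 and 12064, and 11061 and 12064. The Sm protein genes Snrpd2, shared with Gm5848, and Snrpd1, shared with Gm14277, read 13758 and 14753, and 5528 and 5843. Snrpa, a U1 snRNP protein gene, read 2715 and 2706. All of these were within 0.2 of 0 on the log2 scale.

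Snrpn shared 6 probe sets with Snurf, which is made from the same transcript. The brightest (1415895_at) read 556 and 626, a difference of 0.17. Of the other 5, 1415896_x_at read 112 and 49.7 and 1435716_x_at read 84.6 and 57.0, each below the floor on the Satb1-labelled array, and 3 did not pass the floor on either array. The bright probe set was therefore higher where 2 dim ones were lower.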
